A study of Mus musculus with 9 samples.

Results

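The genes described here encode the enzymes and regulators of fatty acid synthesis and of sterol synthesis. They were named gene by gene from knowledge of these pathways, 10 in a lipogenic branch and 19 in a sterol branch, 29 in all. Earlier results of these data were known when they and the other gene lists below were chosen. Shares of such lists set beside those of all probe sets are therefore descriptions alone. Where a gene had several probe sets, that of the highest mean value on the 9 arrays was to be read. Of the 29 genes, 26 could be read, among 19505 named genes and 22206 probe sets tested: 8 in the lipogenic branch and 18 in the sterol branch, each with 1 probe set. Srebf1 and Scd2 of the lipogenic branch and Tm7sf2 of the sterol branch were not analysed here.

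The mitochondrial calcium uniporter, whose pore is formed by MCU and which also holds the MCU paralogue MCUb, lets calcium into the mitochondrial matrix. Tibialis anterior, a fast muscle of the lower leg, was taken from mice 2 months old on the C57/BL6 background and profiled on Clariom S arrays. There were 3 groups of 3 arrays: MCU knockout (MCU-/-/MCUb+/+), MCUb knockout (MCU+/+/MCUb-/-) and control (MCU+/+/MCUb+/+). Whether the deletions cover the whole animal or muscle alone, and the sex and litter of the mice, are not stated in the sources used here, and the 3 samples of a group are not said to be different mice. The p-values therefore reflect the spread over these samples alone, part of which may be technical. All groups share the strain and the age.

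In the cytosol, citrate exported from mitochondria is split by ATP citrate lyase (Acly) into the acetyl-CoA from which both pathways start. Acetyl-CoA carboxylase (Acaca and Acacb) and fatty acid synthase (Fasn) build palmitate with NADPH supplied in part by malic enzyme (Me1), whereas the mevalonate route leads through farnesyl diphosphate and squalene to lanosterol and cholesterol. SREBP transcription factors raise the genes of both branches when sterols or insulin signalling call for it, and Insig proteins hold them back in the endoplasmic reticulum. In muscle, malonyl-CoA made by the Acacb product is best known as a brake on mitochondrial fatty acid import.

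Upstream sequence was examined because both branches are read out by factors that bind close to the start site. RefSeq promoters of GRCm38.p6 were found for 22 of the 26 measured genes, and the 250 bases before each start were searched on both strands for the sterol response element core TCACNCCAC, the NF-Y box CCAAT, the GC box GGGCGG and the palindromic E-box CACGTG. The 5 sequences below are the starting enzyme Acly, the regulator Srebf2 and 3 sterol enzymes, among them Cyp51, the sterol gene farthest below control, and the only measured member whose window held the sterol element core, Hmgcs1. Each runs 5′ to 3′ on the gene's strand, with every match in capitals, so that a match on the other strand appears as its reverse complement. No matches of different motifs overlap in them.
Acly, chr11:100528001-100528250, minus strand: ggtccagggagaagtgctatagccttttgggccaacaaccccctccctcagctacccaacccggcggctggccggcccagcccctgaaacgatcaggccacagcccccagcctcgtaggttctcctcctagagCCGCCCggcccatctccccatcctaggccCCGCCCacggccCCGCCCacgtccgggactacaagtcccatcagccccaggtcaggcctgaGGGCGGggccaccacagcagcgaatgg
Srebf2, chr15:82147019-82147268, plus strand: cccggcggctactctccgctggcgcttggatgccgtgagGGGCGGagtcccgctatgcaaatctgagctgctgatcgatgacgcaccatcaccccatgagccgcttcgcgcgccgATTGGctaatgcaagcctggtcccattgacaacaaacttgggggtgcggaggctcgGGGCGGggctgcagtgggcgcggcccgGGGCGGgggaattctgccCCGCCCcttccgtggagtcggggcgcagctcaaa
Hmgcs1, chr13:119690101-119690350, plus strand: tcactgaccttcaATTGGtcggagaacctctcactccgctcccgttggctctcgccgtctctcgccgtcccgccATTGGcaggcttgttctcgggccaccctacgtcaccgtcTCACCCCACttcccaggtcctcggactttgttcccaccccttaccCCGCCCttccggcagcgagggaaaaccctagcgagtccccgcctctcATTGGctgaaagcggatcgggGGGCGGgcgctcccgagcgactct
Lss, chr10:76531355-76531604, plus strand: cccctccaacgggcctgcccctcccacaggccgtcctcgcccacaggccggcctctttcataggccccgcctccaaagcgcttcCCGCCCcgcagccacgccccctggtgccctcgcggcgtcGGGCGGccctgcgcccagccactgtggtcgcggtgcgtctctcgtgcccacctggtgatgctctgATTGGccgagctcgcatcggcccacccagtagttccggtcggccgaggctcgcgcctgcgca
Cyp51, chr5:4104698-4104947, minus strand: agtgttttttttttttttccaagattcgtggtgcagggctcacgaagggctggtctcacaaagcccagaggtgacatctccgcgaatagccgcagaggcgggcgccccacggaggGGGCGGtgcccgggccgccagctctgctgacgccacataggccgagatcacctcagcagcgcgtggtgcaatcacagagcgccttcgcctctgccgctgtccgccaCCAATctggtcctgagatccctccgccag

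All 15 sterol genes with a promoter held a CCAAT box in at least 1 listed promoter (100%), against 37.5% of the 27025 genes in the promoter table. In the lipogenic branch 4 of 7 held one (57.1%), which were Fasn, Acacb, Elovl5 and Me1. Counted over single promoters, since some genes have several, 15 of 20 sterol promoters (75%), 4 of 8 lipogenic promoters (50%) and 33.8% of all 32851 promoters did. The GC box was found for 14 of 15 sterol genes (93.3%) and for 2 of 7 lipogenic genes (28.6%), Acly and Me1, against 35.4% of all genes. The sterol element core was found for 1 sterol gene (6.67%), Hmgcs1, for 0 lipogenic genes and for 1.22% of all genes. In Hmgcs1 it lies 137 to 129 bases before the start. The E-box was found for Insig1, Dhcr7, Hsd17b7 and Sc5d (26.7%) and for Elovl5 (14.3%), against 6.86% of all genes. In Cyp51 the CCAAT box lies 29 to 25 bases and the GC box 135 to 130 bases before the start, and Acly has 4 GC boxes and no CCAAT in its window. A match is a run of letters and not a measured binding site, and these shares were not tested. Only exact matches were counted, so a stretch that differs from a motif by 1 base was left out.

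The targeted gene was read first. Mcu had log2 values of 6.80, 6.98 and 7.06 on the MCU knockout arrays, 10.71, 11.06 and 10.81 on the MCUb knockout arrays and 10.38, 10.96 and 10.46 on the control arrays, 12.6-fold lower in the MCU knockout than in control (log2 difference -3.65, SE 0.20, limma adjusted p = 3.47e-05). No such check of the MCUb knockout label was made, as Mcub was not analysed here. An array's background limit, the 95th percentile of its 23 background sets, lay between 5.87 and 5.92, and 45.3% to 45.9% of the probe sets of an array exceeded it. The number of arrays limits the precision. All 8 markers of fast muscle were above background on every array, with mean levels of 18.23 to 18.33 on MCU knockout arrays, 18.18 to 18.34 on MCUb knockout arrays and 17.87 to 18.32 on control arrays. Control replicate 3 stood apart, with a mean correlation with the other arrays of 0.978 where the others had 0.985 to 0.988. Y-linked expression, taken as the mean of Uty and Kdm5d, was above background on MCU knockout replicates 2 and 3 (7.56 and 7.24) and on MCUb knockout replicate 1 (7.80). The other 6 arrays, which include the 3 controls, lay between 3.01 and 3.89. By these values sex was mixed in both knockouts and not balanced over the genotypes. Samples of unlike Y-linked level within a knockout cannot be from the same mouse.

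Of the 26 measured genes, 23 were above background on at least 1 array and 19 on all 9. Elovl6, Sqle and Msmo1 were not well above background on any array, which leaves only a bound for them. In limma, with Benjamini-Hochberg adjustment over all probe sets and a threshold of 0.05, 0 of the 26 passed in any of the 3 comparisons. Over all probe sets 0.14% passed between MCU knockout and control, 0.0225% between MCUb knockout and control and 0.158% between the knockouts. At an unadjusted p under 0.05, 1 member was higher and 4 were lower in the MCU knockout than in control (19.2% in all), against 10.1% of all probe sets, 4.76% higher and 5.35% lower. In the MCUb knockout 2 were higher and 2 lower than in control (15.4%), against 8.11% of all probe sets, 3.9% higher and 4.21% lower. In the MCU knockout 2 were higher and 0 lower than in the MCUb knockout (7.69%), against 5.7% of all probe sets, 2.68% higher and 3.02% lower. No gene below is therefore called changed. Both comparisons with control use the same 3 control arrays.

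**Figure D1:**
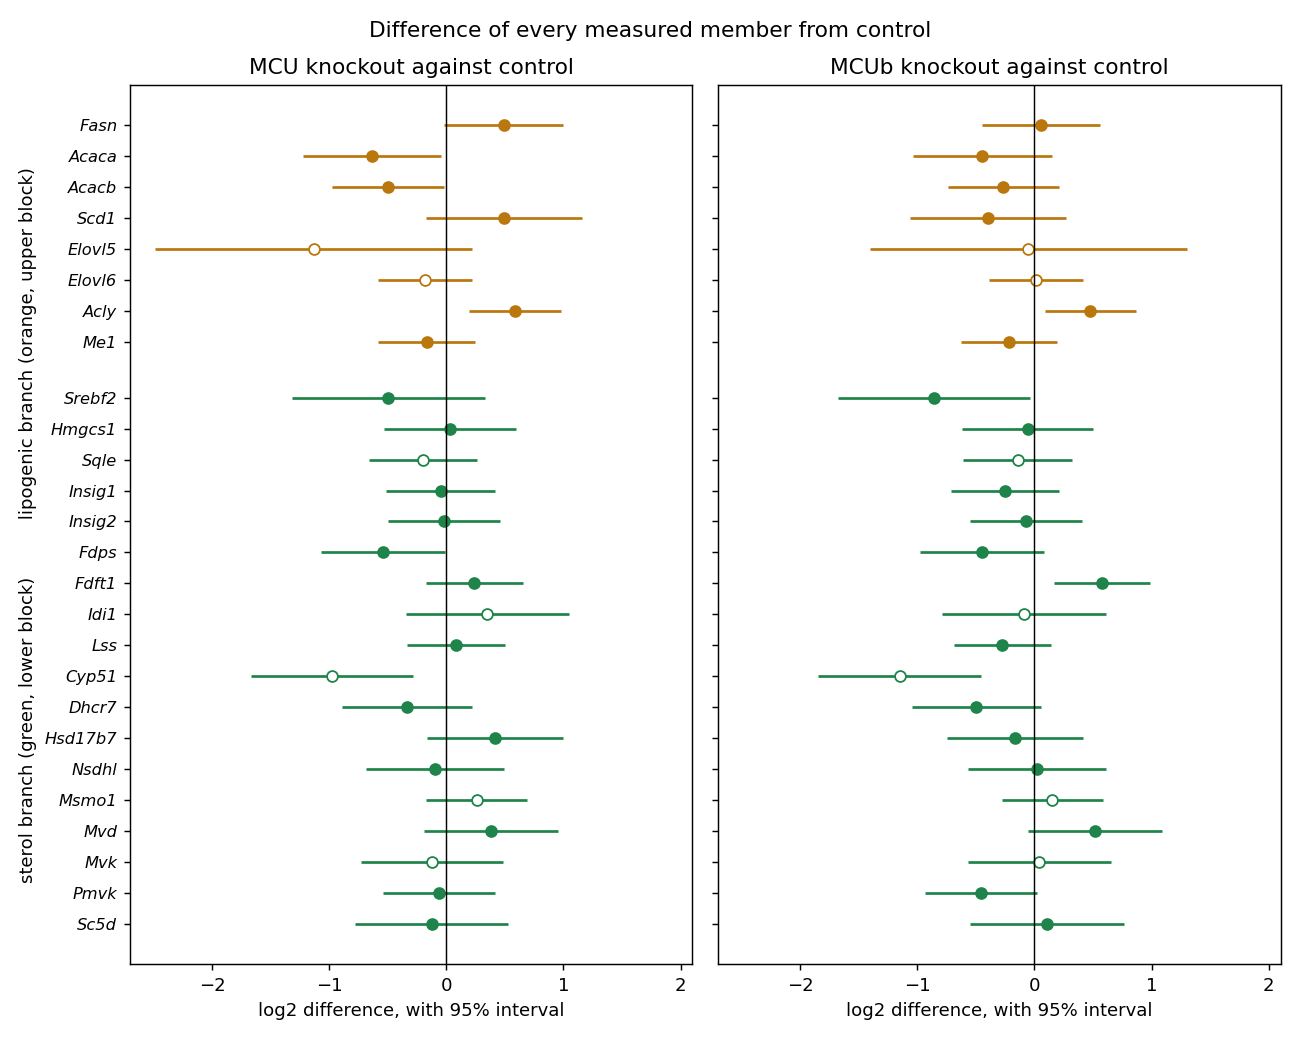
Log2 difference from control (horizontal axis) of each of the 26 measured genes, for MCU knockout (left panel) and MCUb knockout (right panel), with the 95% interval of the limma fit. Orange marks the lipogenic and green the sterol branch, and open circles mark genes that were not above background on all 9 arrays. Acly lies to the right and Cyp51 to the left of 0 in both panels, and most other intervals cross 0.

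Acly, the enzyme that makes cytosolic acetyl-CoA from citrate, had the smallest p of the set in the MCU knockout. Its log2 values were 10.99, 10.82 and 11.05 on the MCU knockout arrays, 10.75, 10.94 and 10.83 on the MCUb knockout arrays and 10.17, 10.33 and 10.59 on the control arrays. Every array of either knockout lay above every control array, and the knockouts overlapped each other. Acly was 1.5-fold higher in the MCU knockout than in control (log2 difference 0.59, SE 0.18, 95% interval 0.20 to 0.98, adjusted p = 0.345) and 1.39-fold higher in the MCUb knockout than in control (0.48, SE 0.18, 95% interval 0.09 to 0.87, adjusted p = 0.562).

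The 2 carboxylases that turn acetyl-CoA into malonyl-CoA had lower values in the MCU knockout. Acaca, the cytosolic form, had log2 values of 8.16, 7.64 and 8.14 in the MCU knockout, 7.89, 8.44 and 8.18 in the MCUb knockout and 8.21, 8.49 and 9.16 in control. No MCU knockout array reached a control array, while the MCUb knockout overlapped with control. The difference between MCU knockout and control was -0.64 (SE 0.27, adjusted p = 0.472), and without control replicate 3, the highest of the 9 arrays for Acaca, it was -0.36. Acacb, the form on the outer mitochondrial membrane, had 9.91, 9.22 and 9.64 in the MCU knockout, 9.95, 9.84 and 9.67 in the MCUb knockout and 9.96, 9.96 and 10.35 in control. Neither knockout overlapped with control for Acacb, although MCUb knockout replicate 1 came within 0.01 of the lowest control array. The difference between MCU knockout and control was -0.50 (SE 0.22, adjusted p = 0.474), and -0.31 without MCU knockout replicate 2.

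Fatty acid synthase and stearoyl-CoA desaturase did not follow the carboxylases. Fasn had log2 values of 7.47, 8.18 and 7.60 in the MCU knockout, 7.59, 7.28 and 7.07 in the MCUb knockout and 7.25, 7.08 and 7.45 in control. All MCU knockout arrays lay above all control arrays, the closest pair by 0.03, and the MCU knockout overlapped with the MCUb knockout, with a difference between the knockouts of 0.43 (SE 0.23, adjusted p = 0.934), and of 0.22 without MCU knockout replicate 2. Scd1, which puts the first double bond into saturated fatty acids, had 7.46, 8.23 and 8.04 in the MCU knockout, 7.24, 7.06 and 6.76 in the MCUb knockout and 7.06, 7.09 and 8.10 in control. Its MCU knockout arrays all lay above its MCUb knockout arrays, 1.85-fold on average (log2 difference 0.89, SE 0.30, 95% interval 0.22 to 1.56, adjusted p = 0.656), and control overlapped with both.

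Fasn and Acaca were also the 2 members whose 3 arrays with high Y-linked levels lay apart from the other 6. Fasn was at least 7.59 on those 3 and at most 7.47 on the others, and Acaca at most 8.14 on those 3 and at least 8.16 on the others. Such a split was found for 7.69% of the members and for 3.57% of all probe sets. With that level as a covariate the Acaca difference between MCU knockout and control was -0.43. The Fasn difference between the knockouts was then 0.29 and the Scd1 difference 0.72. The part of the Y-linked level in these values was not tested further.

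Among the remaining lipogenic genes, Elovl5 and Elovl6 were dim. Me1, the cytosolic malic enzyme, averaged 13.82 ± 0.10 in the MCU knockout, 13.77 ± 0.29 in the MCUb knockout and 13.99 ± 0.04 in control (SD, n = 3 each, here and below). Its MCU knockout arrays all lay below its control arrays, by a small margin. Elovl5, an elongase of polyunsaturated fatty acids, was above background on 1 MCU knockout, 1 MCUb knockout and 2 control arrays and spread widely, at 5.21 ± 1.32, 6.28 ± 0.89 and 6.34 ± 0.63 in that order. Elovl6, which elongates palmitate, stood at 3.75 ± 0.22, 3.94 ± 0.12 and 3.93 ± 0.14 in the same order, all under the background limit.

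**Figure D2:**
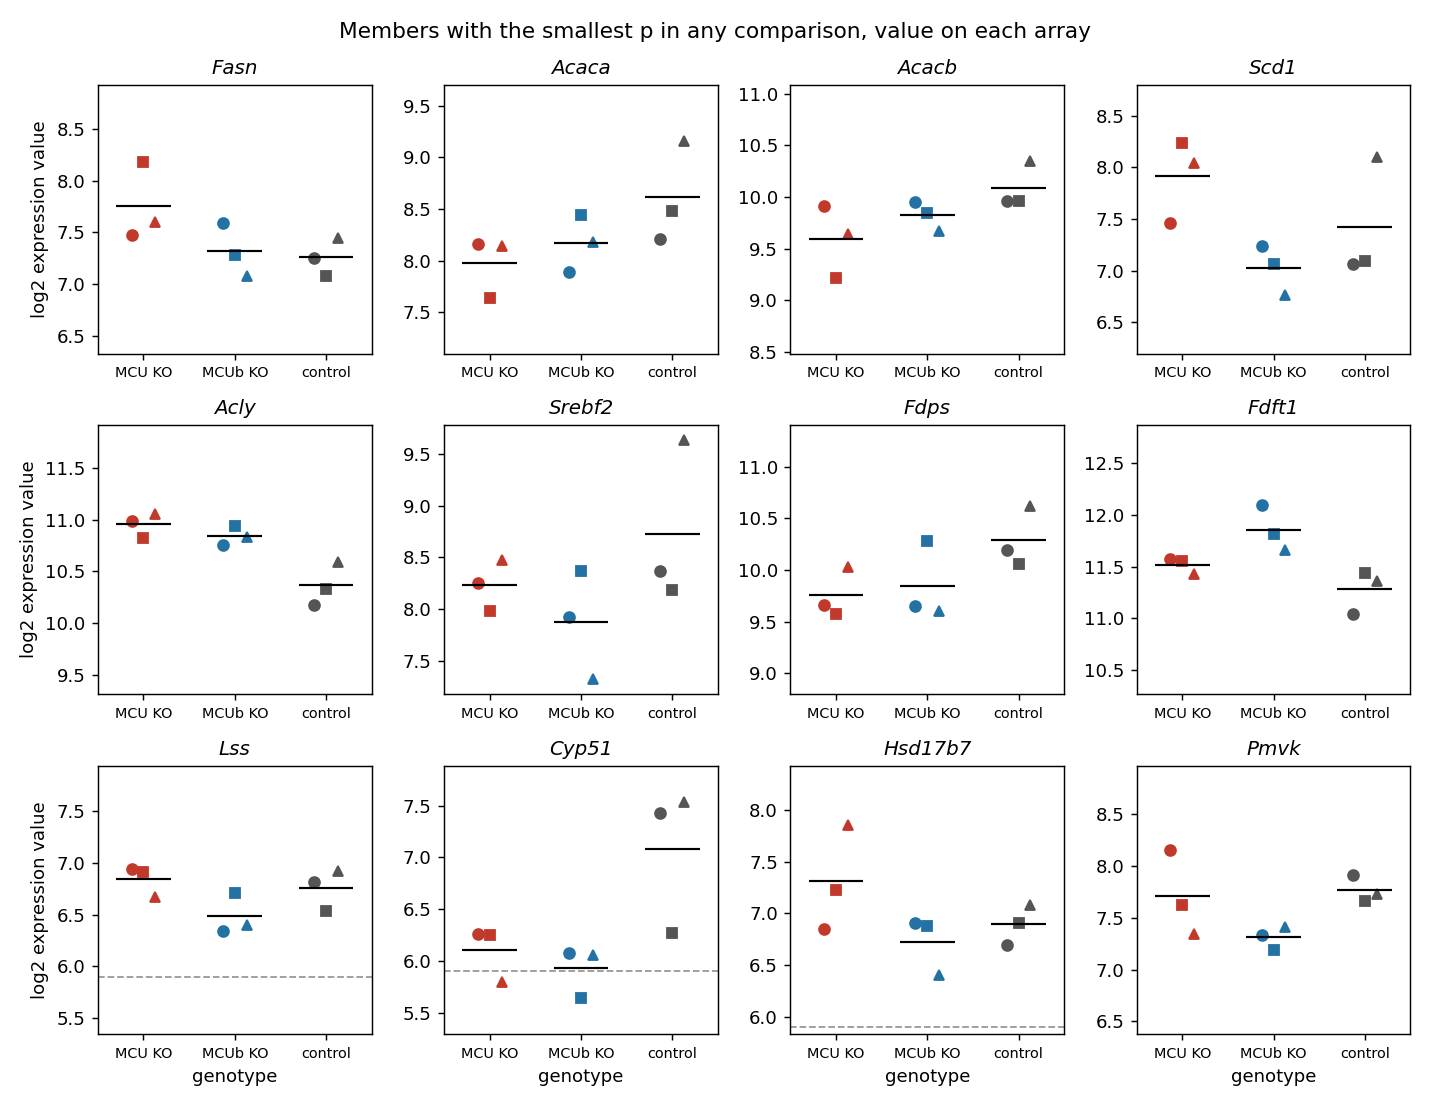
Log2 expression value (vertical axis, a span of 2.6 in each panel) of 12 genes on each array of the MCU knockout (red), the MCUb knockout (blue) and control (grey). Circles, squares and triangles are replicates 1, 2 and 3, horizontal bars are group means, and the dashed line is the mean background limit. The knockouts lie above control for Acly and below it for Cyp51, where control replicate 2 sits close to the knockout arrays.

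In the sterol branch, the lanosterol demethylase gene Cyp51 had the largest difference from control. Its log2 values were 6.26, 6.25 and 5.80 in the MCU knockout, 6.08, 5.64 and 6.06 in the MCUb knockout and 7.43, 6.26 and 7.53 in control. It was above background on 2 of 3 arrays of each knockout and on all control arrays. The groups did not overlap, but control replicate 2 lay within 0.01 of the highest MCU knockout array, while the other controls lay more than 1 log2 unit above all knockout arrays. Cyp51 was 1.97-fold lower in the MCU knockout than in control (log2 difference -0.98, SE 0.31, 95% interval -1.67 to -0.28, adjusted p = 0.366) and 2.22-fold lower in the MCUb knockout than in control (-1.15, SE 0.31, 95% interval -1.84 to -0.46, adjusted p = 0.477). Without control replicate 2 the differences were -1.38 and -1.56 and both passed (limma adjusted p = 0.0418 and 0.0477). Over all settings tried the adjusted p of Cyp51 ranged from 0.0418 to 0.628 in the MCU knockout and from 0.0477 to 0.767 in the MCUb knockout.

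Srebf2, which encodes the SREBP that acts mainly on sterol genes, had log2 values of 8.25, 7.98 and 8.47 in the MCU knockout, 7.93, 8.37 and 7.32 in the MCUb knockout and 8.37, 8.19 and 9.64 in control. The 3 groups overlapped, and control replicate 3 alone lay above 9. The MCUb knockout differed from control by -0.86 (SE 0.37, adjusted p = 0.598), and by -0.40 without control replicate 3. The 2 Insig genes, which retain SREBP in the endoplasmic reticulum, had similar means in the 3 groups. Insig1 averaged 6.85 ± 0.21 in the MCU knockout, 6.64 ± 0.12 in the MCUb knockout and 6.89 ± 0.34 in control, and Insig2 averaged 7.97 ± 0.37, 7.92 ± 0.12 and 7.99 ± 0.22 in the same order.

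In the mevalonate segment, which runs from acetyl-CoA units to isoprenoids, genes lay on both sides of control. Hmgcs1, the first committed synthase of cytosolic mevalonate synthesis, averaged 7.15 ± 0.39 in the MCU knockout, 7.06 ± 0.43 in the MCUb knockout and 7.12 ± 0.08 in control, and its 95% interval for the MCU knockout against control was -0.53 to 0.59. Mvk, mevalonate kinase, was above background on 1 MCUb knockout array alone, with means of 5.42 ± 0.43 in the MCU knockout, 5.59 ± 0.35 in the MCUb knockout and 5.54 ± 0.37 in control. Idi1, the isopentenyl diphosphate isomerase, was above it on 1 MCU knockout array alone, with means of 5.60 ± 0.44, 5.16 ± 0.66 and 5.25 ± 0.12 in the same order. Pmvk, the next kinase, had 8.15, 7.62 and 7.35 in the MCU knockout, 7.33, 7.19 and 7.41 in the MCUb knockout and 7.92, 7.66 and 7.73 in control. All MCUb knockout arrays of Pmvk lay below all control arrays (difference -0.46, SE 0.22, adjusted p = 0.619). The MCU knockout was higher than the MCUb knockout by 0.40 (SE 0.22, adjusted p = 0.948), and by 0.17 without MCU knockout replicate 1. Mvd, the decarboxylase, averaged 6.87 ± 0.30 in the MCU knockout, 7.003 ± 0.460 in the MCUb knockout and 6.48 ± 0.26 in control.

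The farnesyl diphosphate synthase gene Fdps and the squalene synthase gene Fdft1, neighbours in the pathway, lay on opposite sides of control. Fdps had log2 values of 9.66, 9.58 and 10.03 in the MCU knockout, 9.65, 10.28 and 9.60 in the MCUb knockout and 10.20, 10.06 and 10.62 in control. Its MCU knockout arrays lay below all controls (difference -0.54, SE 0.24, adjusted p = 0.482), and 1 MCUb knockout array lay among the controls. Fdft1 had 11.58, 11.56 and 11.42 in the MCU knockout, 12.09, 11.81 and 11.67 in the MCUb knockout and 11.04, 11.43 and 11.36 in control. All its MCUb knockout arrays lay above all other arrays, 1.49-fold over control on average (log2 difference 0.58, SE 0.19, 95% interval 0.16 to 0.99, adjusted p = 0.534).

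Later sterol steps gave small or scattered differences. Sqle, squalene epoxidase, averaged 3.51 ± 0.18 in the MCU knockout, 3.57 ± 0.02 in the MCUb knockout and 3.71 ± 0.37 in control, under the background limit. Lss, lanosterol synthase, had 6.94, 6.91 and 6.67 in the MCU knockout, 6.34, 6.71 and 6.40 in the MCUb knockout and 6.82, 6.54 and 6.92 in control. The knockouts overlapped at 1 array each for Lss (difference between them 0.36, SE 0.19, adjusted p = 0.929). Hsd17b7, a sterol ketoreductase, had 6.85, 7.23 and 7.86 in the MCU knockout, 6.90, 6.88 and 6.40 in the MCUb knockout and 6.69, 6.91 and 7.09 in control. Its groups overlapped, with a difference between the knockouts of 0.58 (SE 0.26, adjusted p = 0.868), and of 0.31 without MCU knockout replicate 3. Dhcr7, which catalyses a last step of cholesterol synthesis, averaged 8.08 ± 0.12 in the MCU knockout, 7.92 ± 0.27 in the MCUb knockout and 8.41 ± 0.49 in control. Nsdhl, a sterol dehydrogenase, averaged 7.24 ± 0.40, 7.36 ± 0.13 and 7.34 ± 0.47 in the same order, and Sc5d, a sterol desaturase, 10.47 ± 0.69, 10.70 ± 0.16 and 10.59 ± 0.22. Msmo1, the C4 methyl oxidase, stayed under the background limit at 4.55 ± 0.24, 4.44 ± 0.19 and 4.29 ± 0.18.

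The medians of the branches are set beside that of all probe sets, and the difference between branches was not tested. Between MCU knockout and control the median log2 difference was -0.17 over the 8 lipogenic genes and -0.05 over the 18 sterol genes, against -0.02 over all probe sets. Between MCUb knockout and control it was -0.13 for the lipogenic and -0.12 for the sterol branch, against -0.03. Between the knockouts it was -0.07 for the lipogenic and 0.10 for the sterol branch, against 0.01. These medians moved with single arrays. Between MCU knockout and control, the sterol median was 0.03 without control replicate 3 and 0.07 without MCU knockout replicate 1, against the sign of the full data. It was -0.10 without control replicate 1 and -0.12 with replicate 3 of the MCU knockout left out, and the lipogenic median was -0.096 without MCU knockout replicate 1. Between the knockouts, the lipogenic median was 0.0061 with replicate 1 and 0.017 with replicate 2 of the MCU knockout left out, again of the other sign, and 0.051 without dim probe sets. The sterol median there kept its sign, but was 0.063 with replicate 2 and 0.066 with replicate 3 of the MCU knockout left out and 0.035 without MCUb knockout replicate 3. Between MCUb knockout and control both medians stayed negative. The lipogenic one was -0.32 without MCUb knockout replicate 1, -0.018 without MCUb knockout replicate 2, -0.28 without control replicate 1 and -0.063 without control replicate 3, and the sterol one lay between -0.18, without any 1 of MCUb knockout replicates 1 and 2 and control replicate 1, and -0.056, without control replicate 3. Below control lay 16 of 26 members in the MCU knockout (61.5%, against 52.4% of all probe sets) and 17 of 26 in the MCUb knockout (65.4%, against 54.0%).

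**Figure D3:**
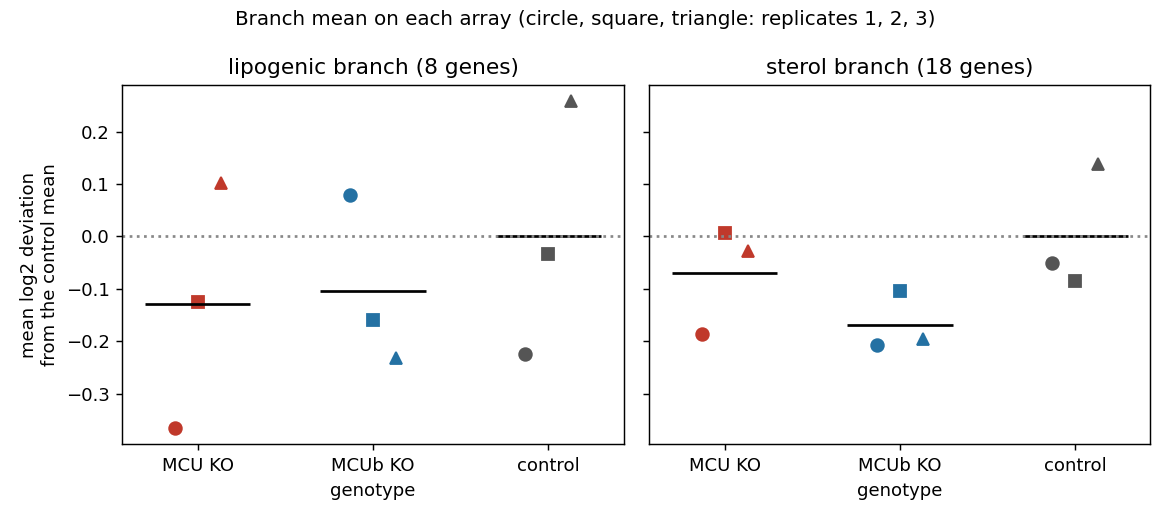
Mean log2 deviation from the control mean (vertical axis) over the 8 lipogenic genes (left) and the 18 sterol genes (right), for each array of the MCU knockout (red), the MCUb knockout (blue) and control (grey). Circles, squares and triangles are replicates 1, 2 and 3, bars are group means and the dotted line is 0. Control replicate 3 is the highest array in both panels, at 0.26 and 0.14, and the lipogenic groups overlap.

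Array by array, the mean deviation of the lipogenic branch from the control mean was -0.37, -0.13 and 0.10 in the MCU knockout, 0.08, -0.16 and -0.23 in the MCUb knockout, and -0.22, -0.03 and 0.26 in control. For the sterol branch it was -0.19, 0.01 and -0.03 in the MCU knockout, -0.21, -0.10 and -0.20 in the MCUb knockout and -0.05, -0.09 and 0.14 in control. All 3 MCUb knockout arrays thus lay below all 3 controls for the sterol mean, the closest pair by 0.02, while the MCU knockout overlapped with control. By the median over the sterol genes the MCUb knockout (-0.116, -0.030 and -0.167) overlapped with control (-0.067, -0.034 and 0.123). The lipogenic groups overlapped. Control replicate 3 held the highest value of 8 of the 26 members (30.8%), namely Acaca, Acacb, Elovl6, Srebf2, Sqle, Fdps, Cyp51 and Nsdhl. It held the highest value of 22.7% of all probe sets, which is the share to set beside that of the members.

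**Figure D4:**
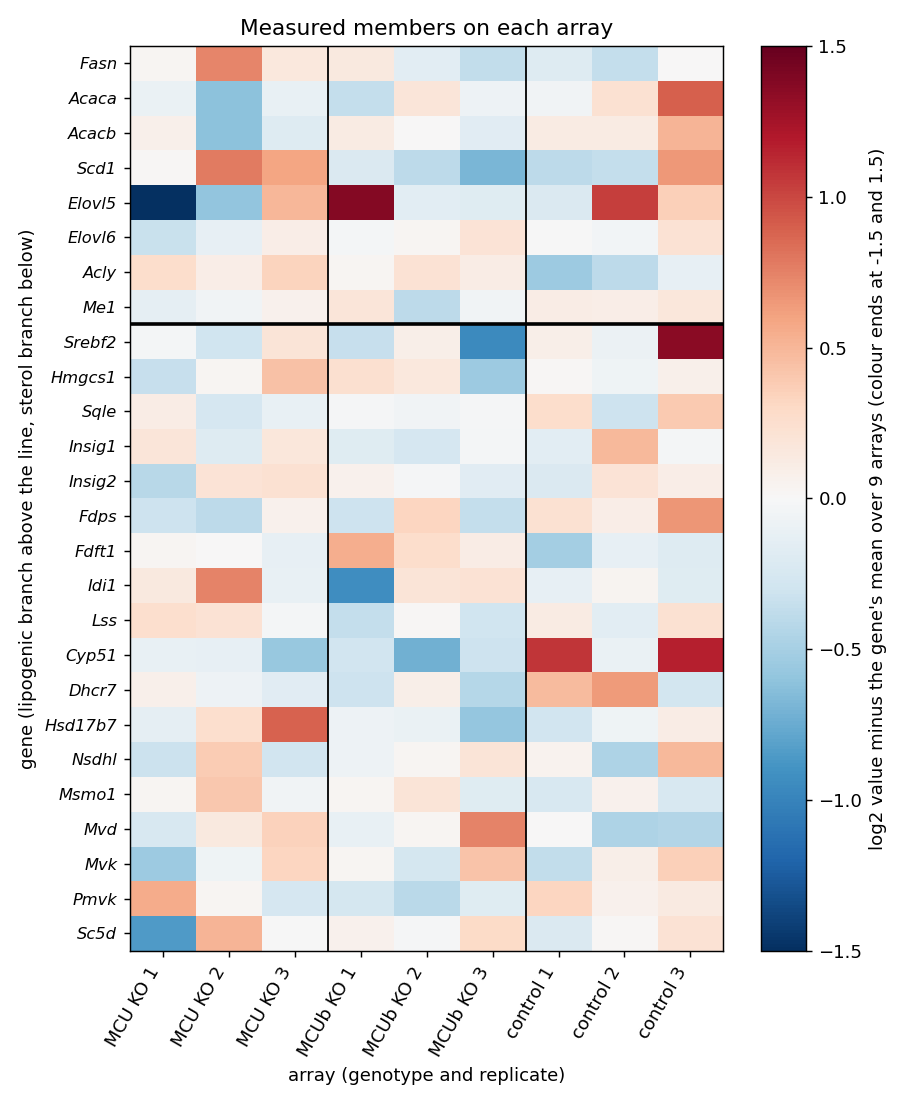
Log2 value of each measured gene minus its mean over the 9 arrays (colour, red above and blue below), with the MCU knockout, MCUb knockout and control arrays from left to right and the lipogenic genes above the line. Red cells for Srebf2, Cyp51 and Acaca stand in the control replicate 3 column, and no block of genes shares 1 colour within a knockout.

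Groups did not overlap for 7 of the 26 genes between MCU knockout and control (26.9%, against 13.4% of all probe sets). Fasn and Acly were higher (6.08% of all probe sets were) and Acaca, Acacb, Me1, Fdps and Cyp51 lower (7.33%). Between MCUb knockout and control the same held for 5 genes (19.2%, against 12.8%), with Acly and Fdft1 higher (5.73% of all probe sets) and Acacb, Pmvk and Cyp51 lower (7.02%). Between the knockouts it held for 2 genes (7.69%, against 12.8%), with Scd1 higher (6.59% of all probe sets) and Fdft1 lower (6.19%) in the MCU knockout. Without control replicate 3, a comparison added after the data were seen, 9 genes did not overlap for the MCU knockout (22.6% of all probe sets did not) and 6 for the MCUb knockout (21.7%).

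For genes above background on all arrays, the intervals bound how large a difference could have gone unseen. The other members are not counted here, among them Cyp51, Elovl5 and Idi1. Between MCU knockout and control their intervals reached beyond a 2-fold difference (-1.67 to -0.28, -2.48 to 0.22 and -0.35 to 1.05 in that order). Of the 19 genes above background on all arrays, 15 had a 95% interval, not adjusted for the number of genes, that lay wholly within a 2-fold difference either way between MCU knockout and control (78.9%, against 72.6% of the 8684 probe sets above background on all arrays). The exceptions were Acaca, Scd1, Srebf2 and Fdps. Between MCUb knockout and control 14 did (73.7%, against 74.7%), all but Acaca, Scd1, Srebf2, Dhcr7 and Mvd, and between the knockouts 16 did (84.2%, against 79.1%), all but Scd1, Srebf2 and Hsd17b7.

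Of 36 further genes of these pathways, 29 were measured, and 0 passed the adjusted threshold of the limma fit. With no adjustment, at p under 0.05, 3 were higher and 6 lower in the MCU knockout than in control (31% of the 29, against 10.1% of all probe sets). In the MCUb knockout 2 were higher and 1 lower than in control (10.3%, against 8.11%), and in the MCU knockout 1 was higher and 5 lower than in the MCUb knockout (20.7%, against 5.7%). Acss2, which makes cytosolic acetyl-CoA from acetate and so shares a product with Acly, had 8.40, 8.38 and 7.63 in the MCU knockout, 8.60, 9.09 and 8.83 in the MCUb knockout and 9.33, 9.06 and 9.69 in control. Its MCU knockout arrays lay below all other arrays (difference from control -1.22, SE 0.26, adjusted p = 0.154), where those of Acly lay above all controls. Lpin1, a phosphatidate phosphatase of triglyceride synthesis, had 15.33, 15.13 and 15.07 in the MCU knockout, 15.85, 15.57 and 15.85 in the MCUb knockout and 15.85, 16.04 and 15.80 in control. It too was lower on every MCU knockout array than on all others, with a difference of -0.72 from control (SE 0.18, adjusted p = 0.251) and of -0.58 from the MCUb knockout (SE 0.18, adjusted p = 0.542).

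Nr1h3, which encodes the oxysterol receptor LXR alpha, a driver of Srebf1 transcription, had 7.56, 7.34 and 8.28 in the MCU knockout, 7.30, 7.96 and 7.67 in the MCUb knockout and 8.63, 8.62 and 8.73 in control. Its controls lay within 0.11 of each other and above every knockout array (MCUb knockout against control -1.02, SE 0.26, adjusted p = 0.469, and MCU knockout against control -0.93, SE 0.26, adjusted p = 0.308). Thrsp, a lipogenic nuclear protein, averaged 9.33 ± 0.61 in the MCU knockout, 9.18 ± 0.15 in the MCUb knockout and 8.53 ± 0.36 in control, with all MCUb knockout arrays above all controls (difference 0.65, SE 0.29, adjusted p = 0.612). Mid1ip1, a Thrsp relative that promotes assembly of acetyl-CoA carboxylase, averaged 6.19 ± 0.61, 7.89 ± 0.05 and 6.63 ± 1.13 in the same order, and was above background on 2 MCU knockout, 3 MCUb knockout and 2 control arrays. The MCUb knockout stood above control by 1.26 (SE 0.47, adjusted p = 0.562), with control replicate 3 among its arrays, and the MCU knockout stood below the MCUb knockout (log2 difference -1.69, SE 0.47, adjusted p = 0.469). Elovl7, an elongase, was above background on 2 MCU knockout arrays and on none of the other 7 arrays (adjusted p = 0.0662 against control and 0.121 against the MCUb knockout), so no fold is given.

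Fat cells and Schwann cells make much lipid, and in whole muscle fewer cells of a type and less RNA per cell cannot be told apart. Of 10 adipocyte markers 8 were measured. Plin1, Cidec, Lep and Pck1 were not well above background on any array. Adipoq (6.75) and Retn (6.60) were above it on control replicate 3 alone. That array was also highest for Srebf2, Acaca and Cyp51, and for 8 of the 26 members in all (30.8%, against 22.7% of all probe sets). Fabp4 and Car3, which other cells of muscle also express, were above background on all arrays and differed in direction. On control replicate 3 Fabp4 was the highest (17.34) and Car3 the lowest (13.25) of the 9 arrays. Car3 was 2.22-fold higher in the MCU knockout than in control, with no overlap (log2 difference 1.15, SE 0.31, adjusted p = 0.306), while Fabp4 differed from control by -0.21 in the MCU knockout and -0.45 in the MCUb knockout, with no overlap in either (adjusted p = 0.703 and 0.565). Of the 8 markers 6 had lower means in each knockout than in control (75%), against 52.4% of all probe sets in the MCU knockout and 54.0% in the MCUb knockout. Of those 6 only Fabp4 was above background on all arrays. The mean level over all 8, which pools these directions, was 7.36 to 7.50 in the MCU knockout, 7.12 to 7.26 in the MCUb knockout and 7.29 to 7.81 in control. Of 8 Schwann cell markers 5 were measured, of which Mbp, Mag and S100b were not well above background on any array, and their mean level was 5.64 to 5.89, 5.36 to 5.67 and 5.73 to 5.89 in the same order. The part of these cells in the values of single genes was not tested.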

How the data were processed

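Per the labels' protocols, total RNA was extracted with Trizol and prepared with the 3′ IVT Pico reagents. The deposited values are log2 expression values, 1 per probe set and array, made by the authors, whose tool was, per the submitters' processing notes, Affymetrix Expression Console. The sources used here state neither its version, nor the normalization, nor the logarithm's base, and log2 was read from the range of 2.33 to 19.9. Of 28846 values per array, 6640 of control features were left out. Annotation gave 1 gene symbol to 19572 probe sets, none to 2634 and several to 0.

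All 22206 probe sets entered 1 fit of 3 group means in limma 3.58.1 (R 4.3.3, lmFit and eBayes, two-sided), with no covariate, and p-values were adjusted by Benjamini-Hochberg. The fit was also run on simulated independent normal values with changes planted in the MCU knockout group. These values held no outlying array such as control replicate 3, so that run cannot show how such an array affects the fit. Alternatives were quantile normalization, median centring, leaving out dim probe sets, a robust prior with intensity trend, weights per array, fits of 2 groups, a Y-linked covariate, the mean of a gene's probe sets, a replicate block and leaving out each array. Statistics are given for members past the threshold and the 5 of smallest p in each comparison, and for the 3 pathway genes of smallest p. Members and lists, cell type markers included, were chosen with earlier results of these data known. The markers of macrophages, fibroblasts and endothelium had mean levels of 6.91 to 7.31, 9.61 to 11.1 and 9.99 to 10.3 in the MCU knockout, 6.37 to 7.42, 9.97 to 10.2 and 9.53 to 10.4 in the MCUb knockout, and 6.67 to 7.29, 9.80 to 10.2 and 9.60 to 11.0 in control. The single measured erythroid marker stood at 7.57 to 7.72, 7.54 to 8.18 and 8.14 to 8.76. Means over several markers pool unlike directions. Of 5 macrophage markers measured, 4 were higher in the MCU knockout than in control and Mrc1 was lower (log2 difference -1.25). Of 4 endothelial markers, 3 were lower in the MCUb knockout than in control, among them Kdr (-1.09), and 1 was higher. In both lists 0 passed the adjusted threshold.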

Additional observations from a re-analysis of the deposited data

How the results depend on the processing

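Under 18 other settings, 9 of which left out 1 array each, the 15 member differences with statistics kept their direction in all 270 recomputed values. They kept their side of the threshold in 268, both exceptions being Cyp51 without control replicate 2. In several settings the direction could not change, since the difference itself stays the same. These were leaving out dim probe sets, the intensity trend, the fit of 2 groups, the replicate block and the mean of a gene's probe sets. Leaving out an array of the group outside the comparison also keeps the difference the same. The number of members past the threshold ranged from 0 to 1 with 1 array left out, in each comparison with control. Members at an unadjusted p under 0.05 in the MCU knockout against control, 5 in the main fit, numbered 3 with dim probe sets left out, 2 with an intensity trend, 3 in a fit of the 2 groups, 3 with a Y-linked covariate, and 2 to 7 with 1 array left out (2 without MCU knockout replicate 2, 3 without MCUb knockout replicate 1 or 3). Between the knockouts, 2 became 1 with dim probe sets left out, with centring, with the trend and in the fit of 2 groups, and 0 to 3 with 1 array left out (0 without replicate 2 of the MCU knockout or replicate 3 of the MCUb knockout, 1 without any 1 control array, and 3 without MCU knockout replicate 1 or 3).

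The sterol median between MCU knockout and control, -0.05, was 0.041 with array weights, -0.16 with the Y-linked covariate and -0.12 to 0.066 with 1 array left out; between MCUb knockout and control it was -0.21 without dim probe sets. The lipogenic median there ranged from -0.32, without MCUb knockout replicate 1, to -0.018. With the Y-linked covariate the lipogenic median was -0.29 in the MCU knockout and -0.27 in the MCUb knockout against control, and the sterol median -0.19 in the MCUb knockout against control and 0.031 between the knockouts. Over all probe sets, the 31 calls in the MCU knockout against control became 16 with the covariate and 20 to 98 with 1 array left out. The 5 in the MCUb knockout against control became 1 in the fit of 2 groups and 0 to 20, and the 35 between the knockouts 61 with array weights and 13 to 43. The cause of these shifts was not tested.

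Replicate numbers recur in each group, and the labels do not say whether samples of the same number belong together. Deviations of the 9 same-numbered pairs correlated between -0.12 and 0.09, and 3 of 9 arrays matched their own number best. With so few arrays per group, these values cannot show that no pairing exists. With the replicate number as a block, members at an unadjusted p under 0.05 numbered 3 between MCU knockout and control and 1 between the knockouts.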
